A study of Mus musculus with 12 samples.

Results

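Macrophages and other leukocytes can be followed in whole-tissue RNA through genes that few other cells transcribe. The macrophage and pan-leukocyte marker genes described here are 42 genes named by symbol, of which 39 were found by that symbol among the 14096 genes with values and 3 (Trem2, Cd163 and Cd86) are not analysed here. The values come from glomerular mRNA of 12 mice, 3 in each of 4 groups. All 12 were male C57BL/6J mice without endothelial nitric oxide synthase (eNOS-/-), so every group carries the eNOS deletion and there is no group with intact eNOS. Diabetic mice had received streptozotocin (STZ), a toxin of pancreatic beta cells, at 50 mg/kg on each of 5 days at 8 weeks of age, and nondiabetic mice had received citrate buffer. From 10 weeks after induction, mice of both kinds were gavaged daily for 8 weeks with arctigenin (ATG), a plant lignan, at 40 mg/kg, or with the 5% DMSO vehicle alone. The 4 groups are therefore vehicle-treated nondiabetic (Con_DMSO), ATG-treated nondiabetic (Con_ATG), vehicle-treated diabetic (DM_DMSO) and ATG-treated diabetic (DM_ATG). The labels describe RNA of glomeruli collected with magnetic beads and, in their protocol, also a digestion to single cells and a sort by EYFP that the methods of the study leave out. The study describes RNA taken from isolated glomeruli, and whether the sort in the labels was applied to these samples is not stated. A sort would change how many leukocytes the RNA holds. Within a group the mice are numbered here from 1 to 3, and a number only names a mouse.

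Macrophages are long-lived or blood-derived phagocytes that sit in the kidney between tubules and, in smaller numbers, in and around glomeruli. Their identity rests on the transcription factor PU.1 and on the receptor for colony-stimulating factor 1, and their outer membrane carries Fc receptors that signal through small adaptors with an immunoreceptor tyrosine-based activation motif (ITAM). Much of the rest of a leukocyte's typical RNA serves engulfment, the lysosome, the oxidative burst and an actin cortex that lets the cell crawl, and macrophages in glomeruli and interstitium are a known feature of diabetic kidney disease.

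The deposited values are log2 of reads per gene multiplied by 1 factor per library and are not divided by gene length. Summed over the 14096 genes, the libraries held 23.6 to 29.8 M reads. Each of the 39 genes had from 23 to 4391 reads in a mouse, so all 39 would pass a minimum of 10 reads in every mouse. Mice of the same group had a Pearson's r of 0.972 to 0.994 across genes, and their variance was 12 to 122.5 times that which sampling of reads gives, taken over all genes. Members with few reads, such as Ncf4 (from 23), Cd37 (from 50) and Cd84 (from 51), also carry a counting error that may be as large as the spread between mice. The 42 tubule markers made up a mean of 1.98% of the values on the linear scale in vehicle-treated nondiabetic, 3.23% in ATG-treated nondiabetic, 0.804% in vehicle-treated diabetic and 0.920% in ATG-treated diabetic mice, and the lowest share (0.425%) was that of vehicle-treated diabetic mouse 3. The first part of a library's name is not shared between groups, so a batch that it might mark and the group cannot be told apart.

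To compare diabetic with nondiabetic glomeruli, each gene was tested with limma across all 12 mice and called at an adjusted p under 0.05 over all 14096 genes. Under vehicle, 15 of the 39 members were higher in diabetic than in nondiabetic mice and 0 were lower, where 10.2% of all genes were higher and 8.63% lower. The 15 were Arhgdib, Cd37, Cd53, Coro1a, Cyth4, Dock2, Fcer1g, Fermt3, Hcls1, Lcp1, Lyz2, Pld4, Ptprc, Spi1 and Tyrobp, with folds from 1.35 (Arhgdib) to 2.63 (Lyz2). The log2 fold change was positive in 36 of the 39, against 51.2% of all genes, and negative in Fcgr2b, Mrc1 and Ptpn6. The median log2 fold change of the members was 0.59, against 0.0075 over all genes. In 26 of the 39 genes, all 3 vehicle-treated diabetic mice lay above all 3 vehicle-treated nondiabetic mice, as they did in 23.0% of all genes. In RNA of many cells at once, more cells of a type and more RNA per cell cannot be told apart.

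The count depended on single mice. Without vehicle-treated diabetic mouse 1, or without vehicle-treated nondiabetic mouse 2, the same 4 members were called (Coro1a, Cyth4, Fermt3 and Hcls1), without vehicle-treated nondiabetic mouse 1 there were 9, and with any other mouse left out from 13 to 18. When the tubule marker mean entered the fit, 3 were called (Arhgdib, Hcls1 and Cyth4), while the median log2 fold change was 0.56. The part of tubule content in these calls was not tested beyond that fit.

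**Figure D1:**
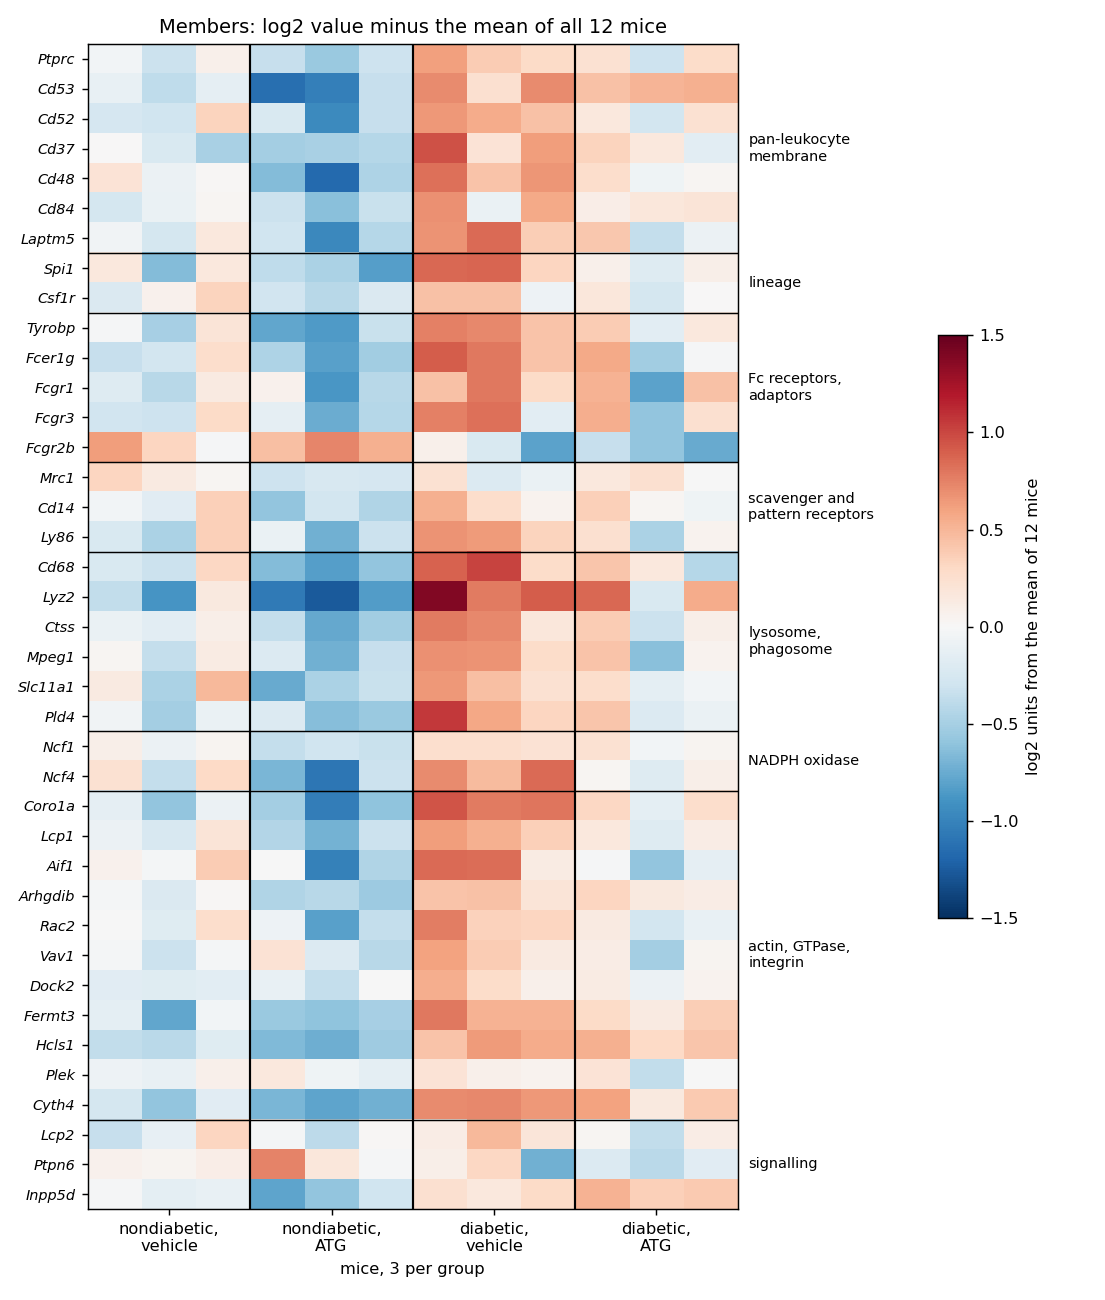
Log2 value of each of the 39 members in each of the 12 mice, as the difference from that gene's mean over all 12 mice (colour, log2 units), with genes grouped by role and mice by group, mice 1 to 3 from left to right. Most rows are red in the vehicle-treated diabetic mice and blue in the ATG-treated nondiabetic mice, while Fcgr2b and Ptpn6 have their highest group means in the ATG-treated nondiabetic mice.

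Of the 7 pan-leukocyte membrane proteins, 3 were higher in vehicle-treated diabetic mice (Cd53, Cd37 and Ptprc) and the other 4 had positive log2 fold changes that did not pass. Cd53, a tetraspanin of the leukocyte surface, had log2 values of 10.41, 10.14 and 10.39 in vehicle-treated nondiabetic mice, 9.40, 9.50 and 10.17 in ATG-treated nondiabetic mice, 11.23, 10.76 and 11.23 in vehicle-treated diabetic mice and 10.96, 11.04 and 11.05 in ATG-treated diabetic mice. All 6 diabetic mice lay above all 6 nondiabetic mice. The log2 fold change for diabetes in vehicle-treated mice was 0.76 ± 0.19 (SE, limma adjusted p = 0.0208). Cd37, a second leukocyte tetraspanin, was at 6.51, 6.27 and 6.02 in vehicle-treated nondiabetic mice, 5.99, 6.01 and 6.07 in ATG-treated nondiabetic mice, 7.45, 6.70 and 7.13 in vehicle-treated diabetic mice and 6.84, 6.66 and 6.35 in ATG-treated diabetic mice. All vehicle-treated diabetic mice were higher than their nondiabetic controls, with a log2 fold change of 0.83 ± 0.21 (SE, limma adjusted p = 0.0216), while 1 ATG-treated diabetic mouse was within the range of those controls. Ptprc encodes CD45, the tyrosine phosphatase of nearly all nucleated blood cells. Its mean log2 value was 9.26 ± 0.20 in vehicle-treated nondiabetic mice, 8.95 ± 0.13 in ATG-treated nondiabetic mice, 9.78 ± 0.17 in vehicle-treated diabetic mice and 9.42 ± 0.33 in ATG-treated diabetic mice (SD, n = 3 each), a log2 fold change for diabetes of 0.52 ± 0.16 (SE, limma adjusted p = 0.0473).

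Cd48, a ligand of the SLAM receptor family, was at 6.56, 6.27 and 6.38 in vehicle-treated nondiabetic mice, 5.70, 5.19 and 5.89 in ATG-treated nondiabetic mice, 7.18, 6.79 and 7.01 in vehicle-treated diabetic mice and 6.62, 6.29 and 6.38 in ATG-treated diabetic mice. The ATG-treated nondiabetic mice held the 3 lowest values of the 12 and the vehicle-treated diabetic mice the 3 highest. For diabetes in vehicle-treated mice the log2 fold change was 0.59 ± 0.20 (SE, limma adjusted p = 0.0579). Cd84, a SLAM family receptor, was at 6.28, 6.44 and 6.57 in vehicle-treated nondiabetic mice, 6.22, 5.92 and 6.21 in ATG-treated nondiabetic mice, 7.23, 6.44 and 7.11 in vehicle-treated diabetic mice and 6.65, 6.72 and 6.74 in ATG-treated diabetic mice. Mouse 2 of the vehicle-treated diabetic group lay among the controls, so the groups overlapped, and the log2 fold change of 0.49 ± 0.20 (SE, limma adjusted p = 0.0999) had the highest p of the 7. Cd52, a short glycoprotein anchored in the lymphocyte and macrophage membrane, had a log2 fold change of 0.62 ± 0.22 (SE, limma adjusted p = 0.0745). Laptm5, a lysosomal membrane protein of leukocytes, had one of 0.69 ± 0.22 (SE, limma adjusted p = 0.0523), and in both genes the vehicle-treated diabetic mice lay above their controls.

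Spi1 encodes PU.1, the ETS-family factor that myeloid cells depend on. Its log2 values were 7.39, 6.58 and 7.39 in vehicle-treated nondiabetic mice, 6.86, 6.75 and 6.41 in ATG-treated nondiabetic mice, 8.10, 8.10 and 7.55 in vehicle-treated diabetic mice and 7.31, 7.04 and 7.32 in ATG-treated diabetic mice. The 3 vehicle-treated diabetic mice were the highest of the 12, with a log2 fold change over their controls of 0.80 ± 0.24 (SE, limma adjusted p = 0.0385), and vehicle-treated nondiabetic mouse 2 was the low one of its group. Csf1r, the receptor that CSF1 and interleukin 34 signal through, was at 9.78, 10.07 and 10.33 in vehicle-treated nondiabetic mice, 9.72, 9.59 and 9.78 in ATG-treated nondiabetic mice, 10.44, 10.44 and 9.92 in vehicle-treated diabetic mice and 10.17, 9.74 and 10.01 in ATG-treated diabetic mice. The groups overlapped. Its log2 fold change was 0.21 ± 0.17 (SE, limma adjusted p = 0.423), with a 95% interval from −0.17 to 0.58 in the same fit.

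PU.1 binds purine-rich sites around the core GGAA, and the motif GAGGAAGT and its shorter form AGGAAGT, which lies within it, were searched on both strands of windows from 250 bases before to 50 bases after RefSeq gene starts (GRCm38.p6). Such windows were found for 32 of the 39 members, 38 windows in all, and none was found for Cd52, Spi1, Csf1r, Tyrobp, Cd14, Ncf4 and Rac2. GAGGAAGT was in 7 of the 38 windows (18.42%), those of Cd37, Cd53, Ctss, Cyth4, Inpp5d, Pld4 and Vav1, and in 3.202% of 32851 windows over all genes. AGGAAGT was in 16 of the 38 (42.11%) and in 9.351% of all. TATAAA, taken for comparison, was in 13.16% of the members' windows and 13.62% of all. A match is a description of these letters only. Sequences of the 250 bases before the start are given for Hcls1 and Cyth4, which had the lowest p for diabetes, for Lyz2, which had the largest change, and for Inpp5d and Vav1, which hold the longer form. They read 5′ to 3′ on the strand of the gene, with either form of the motif in capitals, where ACTTCCT is AGGAAGT on the other strand.
Hcls1 (chr16:36934733-36934982, plus strand): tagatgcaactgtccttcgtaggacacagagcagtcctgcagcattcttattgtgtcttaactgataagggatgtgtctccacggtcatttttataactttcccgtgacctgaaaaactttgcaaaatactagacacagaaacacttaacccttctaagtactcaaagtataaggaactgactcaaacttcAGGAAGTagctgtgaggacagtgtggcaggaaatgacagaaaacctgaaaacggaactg
Cyth4 (chr15:78596797-78597046, plus strand): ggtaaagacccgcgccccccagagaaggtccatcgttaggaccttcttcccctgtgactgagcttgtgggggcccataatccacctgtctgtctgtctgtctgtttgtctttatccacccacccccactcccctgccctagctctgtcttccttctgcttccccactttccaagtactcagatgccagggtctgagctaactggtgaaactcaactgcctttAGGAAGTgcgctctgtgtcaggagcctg
Lyz2 (chr10:117282273-117282522, minus strand): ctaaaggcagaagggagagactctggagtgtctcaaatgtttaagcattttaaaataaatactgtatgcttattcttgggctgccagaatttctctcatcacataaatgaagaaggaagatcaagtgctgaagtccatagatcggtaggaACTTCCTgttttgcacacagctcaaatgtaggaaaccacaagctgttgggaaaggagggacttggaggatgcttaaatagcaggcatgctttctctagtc
Inpp5d (chr1:87620062-87620311, plus strand): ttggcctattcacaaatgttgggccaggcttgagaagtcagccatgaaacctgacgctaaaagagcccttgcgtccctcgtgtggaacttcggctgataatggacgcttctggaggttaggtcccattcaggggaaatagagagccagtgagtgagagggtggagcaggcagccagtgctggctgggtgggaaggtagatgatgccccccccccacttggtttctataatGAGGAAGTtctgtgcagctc
Vav1 (chr17:57278850-57279099, plus strand): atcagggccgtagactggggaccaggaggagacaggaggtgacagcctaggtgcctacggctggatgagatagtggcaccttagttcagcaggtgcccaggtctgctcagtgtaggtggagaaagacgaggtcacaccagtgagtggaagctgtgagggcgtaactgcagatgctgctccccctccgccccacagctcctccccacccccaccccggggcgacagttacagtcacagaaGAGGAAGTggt
Counted from the start base, with the base before it as −1, the longer form began at −20 in Inpp5d and at −11 in Vav1. AGGAAGT alone began at −59 in Hcls1, at −28 in Cyth4 and, on the other strand, at −100 in Lyz2. Cyth4 also has GAGGAAGT on the other strand from 26 to 33, after its start.

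Of the 5 Fc receptor genes with their adaptors, Tyrobp and Fcer1g were higher in vehicle-treated diabetic mice. Both encode small ITAM adaptors, DAP12 and the common gamma chain of Fc receptors. Tyrobp was at 8.14, 7.66 and 8.35 in vehicle-treated nondiabetic mice, 7.38, 7.31 and 7.83 in ATG-treated nondiabetic mice, 8.92, 8.88 and 8.58 in vehicle-treated diabetic mice and 8.54, 8.01 and 8.31 in ATG-treated diabetic mice, with a log2 fold change for diabetes of 0.74 ± 0.21 (SE, limma adjusted p = 0.0310). The vehicle-treated diabetic mice were the 3 highest of all. Fcer1g was at 7.41, 7.48 and 8.02 in vehicle-treated nondiabetic mice, 7.29, 6.95 and 7.24 in ATG-treated nondiabetic mice, 8.66, 8.55 and 8.19 in vehicle-treated diabetic mice and 8.33, 7.24 and 7.74 in ATG-treated diabetic mice, with a log2 fold change of 0.83 ± 0.26 (SE, limma adjusted p = 0.0464). Its vehicle-treated groups did not overlap, and ATG-treated diabetic mouse 2 lay at the level of the nondiabetic mice.

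The 3 IgG receptors did not pass in vehicle-treated mice. Fcgr3, a low-affinity activating IgG receptor, was at 7.10, 7.07 and 7.67 in vehicle-treated nondiabetic mice, 7.24, 6.64 and 6.96 in ATG-treated nondiabetic mice, 8.13, 8.21 and 7.22 in vehicle-treated diabetic mice and 7.93, 6.79 and 7.62 in ATG-treated diabetic mice. Both mouse 3 of the vehicle-treated and mouse 2 of the ATG-treated diabetic group were low and overlapped with nondiabetic mice, and the log2 fold change was 0.57 ± 0.33 (SE, limma adjusted p = 0.246). Fcgr1, the high-affinity IgG receptor, had a log2 fold change of 0.67 ± 0.35 (SE, limma adjusted p = 0.199). Fcgr2b, the inhibitory IgG receptor, is given in full because its values, once seen, ran the other way, and was at 8.78, 8.47 and 8.13 in vehicle-treated nondiabetic mice, 8.60, 8.87 and 8.68 in ATG-treated nondiabetic mice, 8.23, 7.92 and 7.35 in vehicle-treated diabetic mice and 7.80, 7.55 and 7.39 in ATG-treated diabetic mice. The diabetic mice lay toward the bottom and the ATG-treated nondiabetic mice near the top. Its log2 fold change was −0.63 ± 0.22 (SE, limma adjusted p = 0.0693) in vehicle-treated mice, where the groups overlapped, and −1.14 ± 0.22 (SE, limma adjusted p = 0.00237) in ATG-treated mice, where they did not. With the tubule marker mean in the fit, its value in vehicle-treated mice turned to 0.092. Fcgr2b, Fcgr3, Fcer1g, Cd48 and Cd84 lie within 0.930 Mb of chromosome 1 of mm10 (170960559 to 171890718), and the Fcgr genes are similar enough in sequence that reads may be shared among them.

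Of the 3 scavenger and pattern recognition receptors, none passed for diabetes in vehicle-treated mice. Ly86 encodes MD-1, a partner of the Toll-like receptor homologue CD180, and was at 6.56, 6.31 and 7.14 in vehicle-treated nondiabetic mice, 6.69, 6.06 and 6.46 in ATG-treated nondiabetic mice, 7.46, 7.42 and 7.12 in vehicle-treated diabetic mice and 7.03, 6.31 and 6.84 in ATG-treated diabetic mice. Vehicle-treated nondiabetic mouse 3 reached the level of vehicle-treated diabetic mouse 3, so the groups overlapped, and the log2 fold change was 0.66 ± 0.25 (SE, limma adjusted p = 0.0895). Mrc1, the mannose receptor of tissue macrophages and some endothelial cells, was at 10.83, 10.63 and 10.53 in vehicle-treated nondiabetic mice, 10.19, 10.26 and 10.25 in ATG-treated nondiabetic mice, 10.73, 10.30 and 10.40 in vehicle-treated diabetic mice and 10.65, 10.74 and 10.49 in ATG-treated diabetic mice. The 3 ATG-treated nondiabetic mice were the lowest of the 12 and the other groups overlapped. Its log2 fold change for diabetes was −0.19 ± 0.11 (SE, limma adjusted p = 0.265). Cd14, the lipopolysaccharide co-receptor, was at 8.60, 8.47 and 9.0 in vehicle-treated nondiabetic mice, 8.05, 8.37 and 8.19 in ATG-treated nondiabetic mice, 9.17, 8.90 and 8.70 in vehicle-treated diabetic mice and 9.0, 8.68 and 8.58 in ATG-treated diabetic mice, with overlapping vehicle-treated groups and a log2 fold change of 0.23 ± 0.17 (SE, limma adjusted p = 0.350).

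Of 6 lysosome and phagosome genes, Lyz2 and Pld4 were higher in vehicle-treated diabetic mice. Lyz2, the lysozyme of macrophages and neutrophils, was at 10.55, 10.03 and 11.07 in vehicle-treated nondiabetic mice, 9.86, 9.65 and 10.07 in ATG-treated nondiabetic mice, 12.30, 11.69 and 11.83 in vehicle-treated diabetic mice and 11.78, 10.69 and 11.47 in ATG-treated diabetic mice. All vehicle-treated diabetic mice were above all nondiabetic mice, and ATG-treated diabetic mouse 2 was below vehicle-treated nondiabetic mouse 3. The log2 fold change was 1.39 ± 0.30 (SE, limma adjusted p = 0.0128), the largest among the 39 and a fold of 2.63. Reads of the neighbouring paralogue Lyz1 may be shared with it, and Lyz1 had a log2 fold change of 1.45 ± 0.32 (SE, limma adjusted p = 0.0140). Pld4, an endolysosomal exonuclease, was at 7.89, 7.43 and 7.84 in vehicle-treated nondiabetic mice, 7.73, 7.30 and 7.38 in ATG-treated nondiabetic mice, 9.0, 8.52 and 8.26 in vehicle-treated diabetic mice and 8.35, 7.73 and 7.84 in ATG-treated diabetic mice, with a log2 fold change of 0.87 ± 0.22 (SE, limma adjusted p = 0.0234) and no overlap between the vehicle-treated groups.

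Slc11a1, a metal transporter of the phagosome, was at 7.48, 6.88 and 7.84 in vehicle-treated nondiabetic mice, 6.60, 6.87 and 7.02 in ATG-treated nondiabetic mice, 8.0, 7.80 and 7.58 in vehicle-treated diabetic mice and 7.62, 7.21 and 7.31 in ATG-treated diabetic mice. The wide spread of the vehicle-treated nondiabetic mice covered vehicle-treated diabetic mice 2 and 3, and the log2 fold change was 0.40 ± 0.23 (SE, limma adjusted p = 0.243). Cd68, a glycoprotein of macrophage lysosomes, had a log2 fold change of 0.81 ± 0.26 (SE, limma adjusted p = 0.0515), and 1 diabetic mouse overlapped with the controls. Ctss, the lysosomal protease cathepsin S, had 0.61 ± 0.20 (SE, limma adjusted p = 0.0519). Mpeg1, a pore-forming protein of macrophages, had 0.62 ± 0.25 (SE, limma adjusted p = 0.1000).

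Neither of the 2 cytosolic NADPH oxidase subunits passed in vehicle-treated mice, although their vehicle-treated groups did not overlap. Ncf4 encodes p40phox and was at 6.06, 5.48 and 6.13 in vehicle-treated nondiabetic mice, 5.15, 4.75 and 5.52 in ATG-treated nondiabetic mice, 6.54, 6.31 and 6.69 in vehicle-treated diabetic mice and 5.86, 5.64 and 5.92 in ATG-treated diabetic mice. Its reads numbered 23 to 103, and it had a log2 fold change of 0.62 ± 0.24 (SE, limma adjusted p = 0.0865). Ncf1 encodes p47phox and was at 8.44, 8.26 and 8.39 in vehicle-treated nondiabetic mice, 7.99, 8.05 and 8.02 in ATG-treated nondiabetic mice, 8.60, 8.60 and 8.56 in vehicle-treated diabetic mice and 8.57, 8.30 and 8.39 in ATG-treated diabetic mice. The 12 values of Ncf1 lay within 0.61 log2 units, and the log2 fold change of 0.22 ± 0.089 (SE, limma adjusted p = 0.0987) was small.

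The regulators of actin, small GTPases and integrins gave the most calls, with 7 of 11 higher in vehicle-treated diabetic mice. Hcls1, a leukocyte relative of cortactin, had the lowest p of the 39 (chromosome 16 of mm10, 36934983 to 36963214). Its log2 values were 8.81, 8.77 and 8.99 in vehicle-treated nondiabetic mice, 8.52, 8.45 and 8.65 in ATG-treated nondiabetic mice, 9.60, 9.82 and 9.74 in vehicle-treated diabetic mice and 9.71, 9.47 and 9.60 in ATG-treated diabetic mice. The 6 diabetic mice lay above all 6 nondiabetic mice, and the log2 fold change was 0.86 ± 0.096 (SE, limma adjusted p = 0.00180). Cyth4, an exchange factor for ARF GTPases, was at 8.76, 8.44 and 8.85 in vehicle-treated nondiabetic mice, 8.34, 8.23 and 8.31 in ATG-treated nondiabetic mice, 9.73, 9.75 and 9.68 in vehicle-treated diabetic mice and 9.63, 9.17 and 9.42 in ATG-treated diabetic mice. Its 3 vehicle-treated diabetic mice were close together and the 6 diabetic mice were again all higher, with a log2 fold change of 1.04 ± 0.13 (SE, limma adjusted p = 0.00201). Coro1a, an actin-binding coronin of leukocytes, was at 8.89, 8.43 and 8.94 in vehicle-treated nondiabetic mice, 8.52, 7.99 and 8.43 in ATG-treated nondiabetic mice, 9.97, 9.81 and 9.83 in vehicle-treated diabetic mice and 9.34, 8.88 and 9.29 in ATG-treated diabetic mice. The vehicle-treated diabetic mice were the 3 highest, by a log2 fold change of 1.12 ± 0.18 (SE, limma adjusted p = 0.00456), and ATG-treated diabetic mouse 2 was level with the nondiabetic mice.

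Lcp1 encodes L-plastin, which bundles actin filaments, and was at 9.78, 9.62 and 10.06 in vehicle-treated nondiabetic mice, 9.42, 9.16 and 9.54 in ATG-treated nondiabetic mice, 10.49, 10.40 and 10.22 in vehicle-treated diabetic mice and 10.03, 9.67 and 9.98 in ATG-treated diabetic mice, with a log2 fold change of 0.55 ± 0.14 (SE, limma adjusted p = 0.0231). Arhgdib, a GDP dissociation inhibitor for small GTPases in blood cells, was at 8.95, 8.76 and 8.99 in vehicle-treated nondiabetic mice, 8.52, 8.56 and 8.43 in ATG-treated nondiabetic mice, 9.41, 9.42 and 9.17 in vehicle-treated diabetic mice and 9.30, 9.12 and 9.09 in ATG-treated diabetic mice. Its change was small but even, with all 6 diabetic mice above all 6 nondiabetic mice and a log2 fold change of 0.43 ± 0.098 (SE, limma adjusted p = 0.0152). Fermt3, kindlin-3, which activates leukocyte integrins, had a log2 fold change of 0.94 ± 0.17 (SE, limma adjusted p = 0.00669), and its deposited span overlaps the gene Trpt1 on the other strand by 89 bases. Dock2, an exchange factor for Rac, had a log2 fold change of 0.47 ± 0.13 (SE, limma adjusted p = 0.0319).

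The other 4 of the 11 did not pass. Rac2, the Rac GTPase of blood cells, had a log2 fold change of 0.45 ± 0.21 (SE, limma adjusted p = 0.143) and Vav1, an exchange factor for small GTPases, one of 0.50 ± 0.21 (SE, limma adjusted p = 0.110). Aif1 encodes IBA1, a common histological stain for macrophages, and had 0.46 ± 0.29 (SE, limma adjusted p = 0.272) on 29 to 115 reads. Plek, a substrate of protein kinase C in platelets and leukocytes, was at 8.88, 8.85 and 9.03 in vehicle-treated nondiabetic mice, 9.12, 8.89 and 8.81 in ATG-treated nondiabetic mice, 9.16, 9.03 and 9.0 in vehicle-treated diabetic mice and 9.16, 8.58 and 8.95 in ATG-treated diabetic mice. All groups overlapped in Plek, its 12 values lay within 0.58 log2 units, the least of the 39, and the log2 fold change was 0.15 ± 0.14 (SE, limma adjusted p = 0.480).

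None of the 3 signalling genes passed in vehicle-treated mice. Inpp5d encodes SHIP1, a phosphatase that removes a phosphate from the phosphoinositide made by PI 3-kinase, and was at 10.58, 10.46 and 10.49 in vehicle-treated nondiabetic mice, 9.81, 10.01 and 10.30 in ATG-treated nondiabetic mice, 10.84, 10.75 and 10.89 in vehicle-treated diabetic mice and 11.12, 10.95 and 10.99 in ATG-treated diabetic mice. The 6 diabetic mice were all above the nondiabetic mice and the ATG-treated nondiabetic mice were the 3 lowest, with a log2 fold change in vehicle-treated mice of 0.32 ± 0.11 (SE, limma adjusted p = 0.0578). Lcp2 encodes the adaptor SLP-76 and was at 7.24, 7.47 and 7.92 in vehicle-treated nondiabetic mice, 7.56, 7.20 and 7.60 in ATG-treated nondiabetic mice, 7.70, 8.08 and 7.77 in vehicle-treated diabetic mice and 7.62, 7.22 and 7.70 in ATG-treated diabetic mice, where the vehicle-treated groups overlapped and the log2 fold change was 0.31 ± 0.20 (SE, limma adjusted p = 0.290). Ptpn6 encodes SHP-1, a phosphatase that damps receptor signals, and was at 9.10, 9.07 and 9.14 in vehicle-treated nondiabetic mice, 9.78, 9.21 and 9.02 in ATG-treated nondiabetic mice, 9.13, 9.35 and 8.32 in vehicle-treated diabetic mice and 8.84, 8.64 and 8.87 in ATG-treated diabetic mice. The highest value was that of ATG-treated nondiabetic mouse 1 and the lowest that of vehicle-treated diabetic mouse 3. For diabetes the log2 fold change of Ptpn6 was −0.18 ± 0.25 (SE, limma adjusted p = 0.646), and 0.13 without vehicle-treated diabetic mouse 3.

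**Figure D2:**
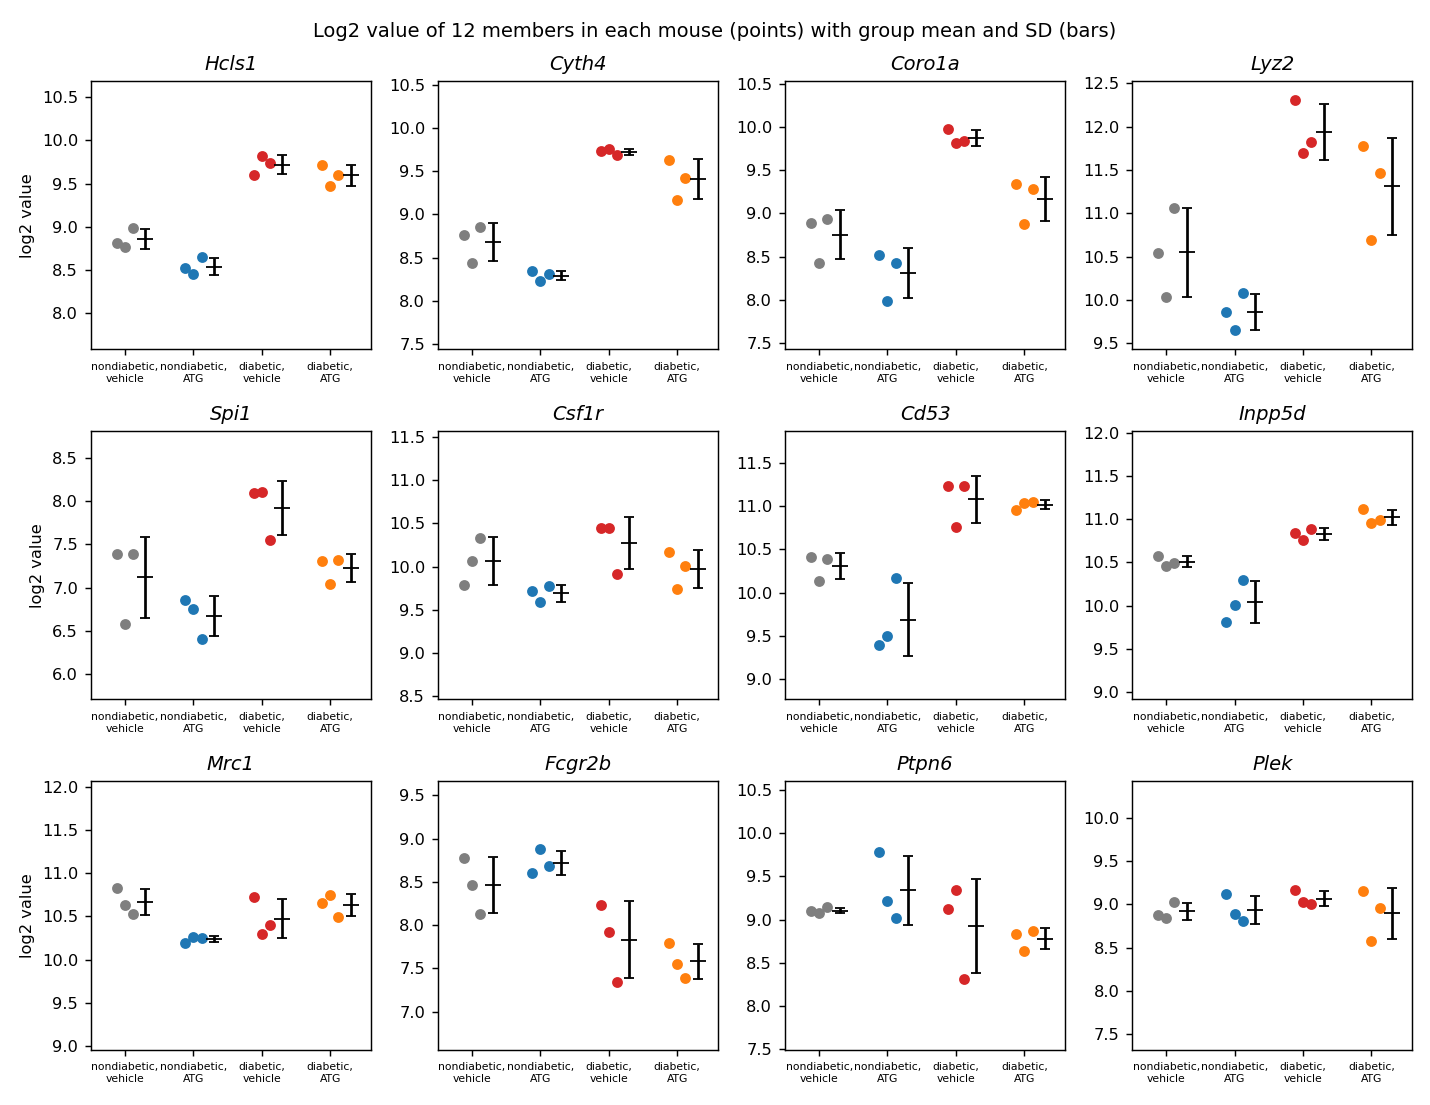
Log2 values of 12 members (y axis, the same span in each panel) in each mouse, coloured by group, with group means and SD as bars (n = 3). Hcls1, Cyth4, Cd53 and Inpp5d separate all diabetic from all nondiabetic mice, Coro1a and Spi1 are highest in vehicle-treated diabetic mice, and Csf1r and Plek overlap.

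Whether ATG altered these genes in diabetic mice was asked by comparing ATG-treated with vehicle-treated diabetic mice. None of the 39 passed, and none of the 14096 genes did (0.00%), and limma-voom on whole reads also called 0 members. The lowest adjusted p among the members was 0.876 in limma. At an unadjusted p under 0.05 in limma, 20 members were lower with ATG and 0 higher, where 2.81% of all genes were lower and 1.70% higher. In 37 of 39 the log2 fold change was negative, against 51.8% of all genes, with Inpp5d and Mrc1 positive, and the median was −0.46 against −0.0051 over all genes. In 15 members the 3 ATG-treated mice all lay below the 3 vehicle-treated mice, as in 6.32% of all genes, and in 1 (Inpp5d) they all lay above, as in 3.85%.

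Coro1a had a log2 fold change with ATG in diabetic mice of −0.70 ± 0.18 (SE, limma adjusted p = 0.876), with a 95% interval from −1.09 to −0.31. Lcp1 had −0.48 ± 0.14 (SE, limma adjusted p = 0.917) and Ncf4 −0.70 ± 0.24 (SE, limma adjusted p = 1.000). In all 3 the ATG-treated diabetic mice lay below the vehicle-treated diabetic mice. These 3 are named for the lowest p in this comparison, so that separation adds no support. The 95% intervals here are not adjusted for the number of genes. Ncf4 reached 100 on the linear scale only in vehicle-treated diabetic mouse 3 (log2 6.69). Aif1 had the most negative value, −0.85 ± 0.29 (SE, limma adjusted p = 1.000), and Spi1 was at −0.70 ± 0.24 (SE, limma adjusted p = 1.000). Hcls1 and Cd53, both higher with diabetes, had values near 0 here. With ATG they differed by −0.13 ± 0.096 and −0.06 ± 0.19 log2 units (SE), with 95% intervals from −0.34 to 0.087 and from −0.48 to 0.36. For Lyz2 it was −0.63 ± 0.30 (SE, limma adjusted p = 1.000), with an interval from −1.29 to 0.035.

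The same treatment was compared in nondiabetic mice. Here 3 of the 39 members were lower with ATG (Inpp5d, Cd48 and Arhgdib) and 0 higher, where 4.51% of all genes were lower and 0.709% higher. It was −0.47 ± 0.11 (SE, limma adjusted p = 0.0356) on the log2 scale for Inpp5d, −0.81 ± 0.20 (SE, limma adjusted p = 0.0419) for Cd48 and −0.39 ± 0.098 (SE, limma adjusted p = 0.0445) for Arhgdib, and in each the ATG-treated mice lay below the vehicle-treated mice. Of the 39, 35 had a negative log2 fold change, against 56.2% of all genes, with a median of −0.39 against −0.039 over all genes. In 15 members the ATG-treated mice all lay below the vehicle-treated mice, as in 20.0% of all genes. The count was 0 when either ATG-treated nondiabetic mouse 1 or 2, or vehicle-treated nondiabetic mouse 1 or 3, was left out, 0 without either ATG-treated diabetic mouse 2 or 3, and 10 without ATG-treated nondiabetic mouse 3. It was 1 without vehicle-treated nondiabetic mouse 2, vehicle-treated diabetic mouse 1 or ATG-treated diabetic mouse 1, 5 without vehicle-treated diabetic mouse 3, and 0 with a median-ratio scaling or with the tubule marker mean in the fit. Endothelial and mesangial markers moved with this contrast, and 10 of 20 and 8 of 15 of them were called lower, against the 4.51% of all genes. Their median log2 fold changes were −0.65 and −0.86, both further from 0 than that of the members. Podocyte markers had a median of −0.56 with 0 of 20 called, and tubule markers one of 0.70. None of the 42 tubule markers was called, but their summed log2 value was higher with ATG without overlap (19.54 to 20.06 against 18.97 to 19.30). Apart from the fit with the tubule markers, the part of these lists in the members' values was not tested.

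Diabetic and nondiabetic mice were also compared under ATG. Its group means come from 6 other mice than those under vehicle, but both comparisons take their variance from all 12 mice, so they are not independent. Of the 39 members, 20 were higher in the diabetic mice and 1 (Fcgr2b) lower, where 25.9% of all genes were higher and 20.8% lower. The median log2 fold change was 0.55 against 0.053 over all genes, and in 22 members the diabetic mice all lay above the nondiabetic mice, as in 30.5% of all genes, and in 2 (Fcgr2b and Ptpn6) all below, as in 25.6%. Of the 15 members called higher under vehicle, 11 (73.3%) were called here too, which is 55.0% of the 20. Over all genes, 1209 of the 1442 called higher under vehicle (83.8%) were called here, which is 33.1% of the 3649 called higher under ATG. The 11 were Arhgdib, Cd37, Cd53, Coro1a, Cyth4, Fermt3, Hcls1, Lcp1, Lyz2, Ptprc and Tyrobp. Hcls1 had 1.05 ± 0.096 (SE, limma adjusted p = 9.07e-05), Inpp5d 0.98 ± 0.11 (SE, limma adjusted p = 0.000166) and Cyth4 1.11 ± 0.13 (SE, limma adjusted p = 0.000210). Cd53 was 2.51-fold and Lyz2 2.73-fold higher. Called here and not under vehicle were Cd14, Cd48, Cd68, Cd84, Ctss, Inpp5d, Mrc1, Ncf1 and Ncf4, and under vehicle and not here Dock2, Fcer1g, Pld4 and Spi1. With the tubule marker mean in the fit 2 were called (Arhgdib and Hcls1), while the median log2 fold change was again 0.55. Of the calls, Cd84 and Ncf4 turned to values just below 0 (−0.073 and −0.042).

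The difference between both ATG effects was tested as an interaction. No member passed, in limma or limma-voom, where 0.546% of all genes did in limma. At an unadjusted p under 0.05 in limma there were 2, Inpp5d and Mrc1, both with a more positive ATG effect in diabetic mice, where 9.63% of all genes were. The difference on the log2 scale was 0.66 ± 0.15 (SE, limma adjusted p = 0.0870) for Inpp5d, 0.58 ± 0.16 (SE, limma adjusted p = 0.163) for Mrc1 and 0.56 ± 0.27 (SE, limma adjusted p = 0.407) for Cd53. Without ATG-treated nondiabetic mouse 3, Inpp5d and Cd53 passed.

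**Figure D3:**
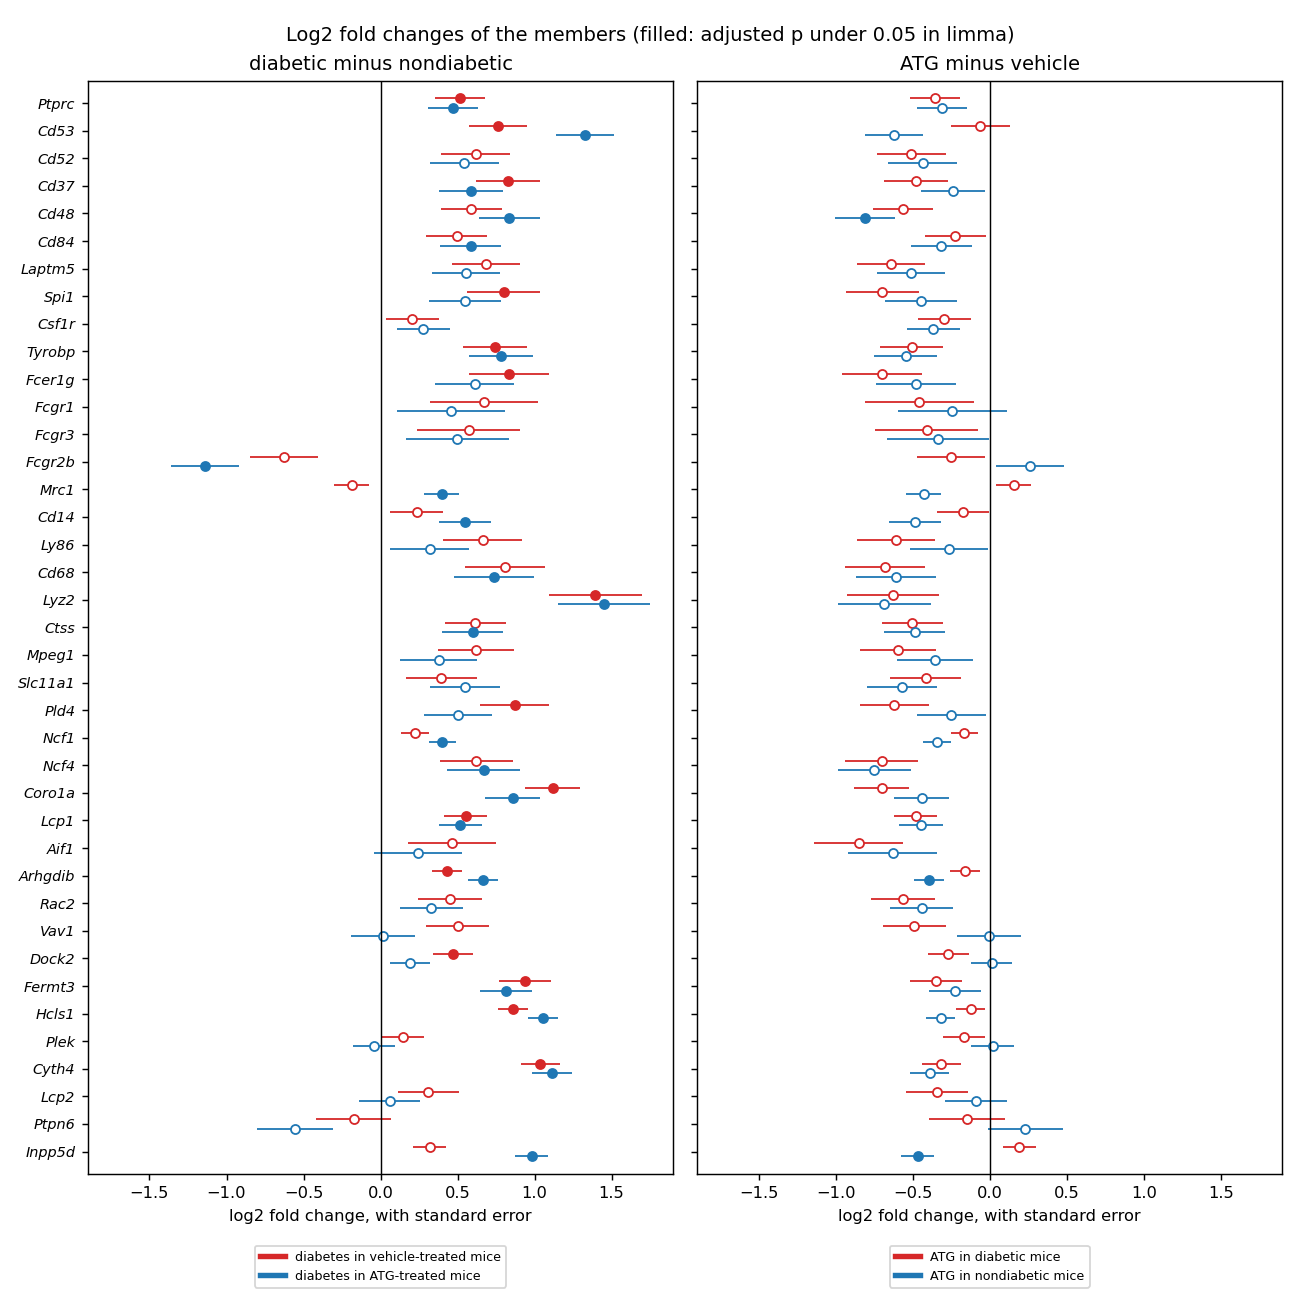
Log2 fold changes of the 39 members (x axis, with standard errors), for diabetes at the left (red under vehicle, blue under ATG) and for ATG at the right (red in diabetic, blue in nondiabetic mice). Filled points passed in limma, 15 red and 21 blue at the left, and 0 red and 3 blue at the right.

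Across the 4 groups, the vehicle-treated diabetic mice had the highest mean in 35 of the 39 members, against 33.5% of all genes, and the ATG-treated nondiabetic mice the lowest in 35, against 46.1%. The mean log2 value of the 39 genes was 8.20 ± 0.19 in vehicle-treated nondiabetic, 7.84 ± 0.15 in ATG-treated nondiabetic, 8.75 ± 0.17 in vehicle-treated diabetic and 8.34 ± 0.23 in ATG-treated diabetic mice (SD, n = 3 each). All 6 diabetic mice lay above all 6 nondiabetic mice in 6 members, Cd53, Arhgdib, Fermt3, Hcls1, Cyth4 and Inpp5d, as in 13.3% of all genes.

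Per kilobase of the deposited gene length, the mean linear value over the 12 mice was highest for Lyz2 (2168), then for Cd53 (569), Tyrobp (537), Ctss (514) and Arhgdib (450). Fcgr1 (29.9) and Cd84 (29.3) were the lowest. Lyz2 also had the widest range across mice (2.65 log2 units), followed by Cd48 (2.00) and Coro1a (1.99), while Plek (0.58), Ncf1 (0.61) and Mrc1 (0.63) had the narrowest.

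Mice of 1 group differed in most members at once. Vehicle-treated nondiabetic mouse 2 was the lowest of its group in 32 of the 39 members, ATG-treated nondiabetic mouse 2 in 26, vehicle-treated diabetic mouse 3 in 28 and ATG-treated diabetic mouse 2 in 31. The share of all genes in which each of these mice was lowest was not counted, so this may not be particular to the members. With each gene expressed as its deviation from the group mean, the Pearson's r of a member with the mean of the other members had a median of 0.74 over the 12 mice and was above 0.8 in 16 members, up to 0.94 in Mpeg1 and Lcp1. These r are descriptions, since the 12 points share 4 group means and genes of a mouse share a library.

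Some members did not follow the others. The r with the mean of the other members was 0.055 for Cd37, 0.12 for Cd53, 0.15 for Cd84, 0.16 for Inpp5d, 0.19 for Fcgr2b and −0.0049 for Mrc1. Deviations of Inpp5d followed those of the mean of 20 endothelial markers (Pearson's r = 0.92, Spearman's coefficient = 0.74, and r = 0.57 without the 2 mice farthest from the median), and so did those of Cd53 (Pearson's r = 0.82, Spearman's coefficient = 0.70 and r = 0.61 likewise). With the mean of 20 podocyte markers the values were as high or higher for Cd53 (Pearson's r = 0.85, Spearman's coefficient = 0.74 and r = 0.64 likewise) and lower for Inpp5d (0.77, 0.45 and 0.23). Deviations of Fcgr2b followed the mean of the 42 tubule markers (Pearson's r = 0.76, Spearman's coefficient = 0.77 and r = 0.72 likewise), and those of Cd84 ran against it (Pearson's r = −0.67, Spearman's coefficient = −0.71 and r = −0.41 likewise). The mean of all members and that of the tubule markers had an r of 0.038.

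Among the 59 of 78 other myeloid genes that were found, 22 were higher in vehicle-treated diabetic than nondiabetic mice and 0 lower (10.2% and 8.63% of all genes), with a median log2 fold change of 0.51. Those with the lowest p were Stab1, a scavenger receptor shared by macrophages and endothelium, with 0.81 ± 0.090 (SE, limma adjusted p = 0.00180), and Irf8, a partner of PU.1, with 1.00 ± 0.14 (SE, limma adjusted p = 0.00278). Ikzf1, the lymphoid and myeloid factor Ikaros, had 1.05 ± 0.16 (SE, limma adjusted p = 0.00371), the kinase gene Lyn 0.51 ± 0.076 (SE, limma adjusted p = 0.00375), and Clec4a3, a C-type lectin, 1.33 ± 0.22 (SE, limma adjusted p = 0.00524). In each of the 5, all diabetic mice were above all nondiabetic mice. Stab1, for example, was at 12.09, 12 and 12.10 in vehicle-treated nondiabetic mice, 11.38, 11.61 and 11.69 in ATG-treated nondiabetic mice, 12.86, 12.89 and 12.88 in vehicle-treated diabetic mice and 12.90, 12.63 and 12.78 in ATG-treated diabetic mice.

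Other macrophage genes of that list, picked here after their values were seen, were divided. Adgre1, which encodes F4/80, had a log2 fold change of 0.22 ± 0.34 (SE, limma adjusted p = 0.675), C1qa, a chain of complement C1q, 0.12 ± 0.45 (SE, limma adjusted p = 0.876) and Siglec1, a sialic acid receptor of macrophages, 0.09 ± 0.21 (SE, limma adjusted p = 0.804). These 3 did not pass. Itgam, which encodes CD11b, had 0.82 ± 0.21 (SE, limma adjusted p = 0.0243), the scavenger receptor gene Msr1 0.86 ± 0.26 (SE, limma adjusted p = 0.0427), the lectin gene Clec4a1 0.96 ± 0.30 (SE, limma adjusted p = 0.0487), Tlr4, the lipopolysaccharide receptor, 0.56 ± 0.16 (SE, limma adjusted p = 0.0357), and the interferon regulatory factor gene Irf5 1.04 ± 0.20 (SE, limma adjusted p = 0.00799), and these 5 passed. With ATG in diabetic mice, 0 of the 59 passed, with a median of −0.30, and the lowest p belonged to Itgb2, the common chain of leukocyte integrins, with −0.65 ± 0.15 (SE, limma adjusted p = 0.804), Csf2rb with −0.70 ± 0.18 (SE, limma adjusted p = 0.876) and Cd300a with −0.57 ± 0.16 (SE, limma adjusted p = 0.917). With ATG in nondiabetic mice, Tlr4, Lyn and Stab1 were lower, and with diabetes under ATG 23 were higher and 3 lower (25.9% and 20.8% of all genes).

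Markers of other leukocytes gave few calls. Of 30 T cell and NK cell markers 6 were found, with 54 to 460 reads per mouse, and of these Nkg7 was lower in vehicle-treated diabetic mice (log2 fold change −1.20, adjusted p = 0.0142 from limma) and none higher. Of 15 B cell and plasma cell markers 5 were found, with a median log2 fold change of −0.042. None of 6 of 15 neutrophil markers found was called, S100a8 and S100a9 having 31 to 135 reads. Of 14 dendritic cell and mast cell markers 7 were found and Clec9a was higher (0.77, adjusted p = 0.0262 from limma).

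Markers of resident kidney cells also differed between the groups. In vehicle-treated diabetic against nondiabetic mice, where 10.2% of all genes were higher and 8.63% lower, 24 of 42 tubule markers were lower, 10 of 20 endothelial markers higher, 0 of 20 podocyte markers called, and 1 of 15 mesangial and smooth muscle markers higher and 2 lower. Proliferation markers were higher in 15 of 17 and erythrocyte and platelet markers in 4 of 7. The summed linear value of the tubule markers, as log2, ranged from 18.97 to 19.30 in vehicle-treated nondiabetic, from 19.54 to 20.06 in ATG-treated nondiabetic, from 16.95 to 18.38 in vehicle-treated diabetic and from 17.89 to 18.16 in ATG-treated diabetic mice. For the endothelial markers these ranges were 17.61 to 17.74, 16.65 to 17.42, 17.98 to 18.13 and 18.05 to 18.18. The part of these cell types in the members' differences was not tested beyond the tubule covariate.

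**Figure D4:**
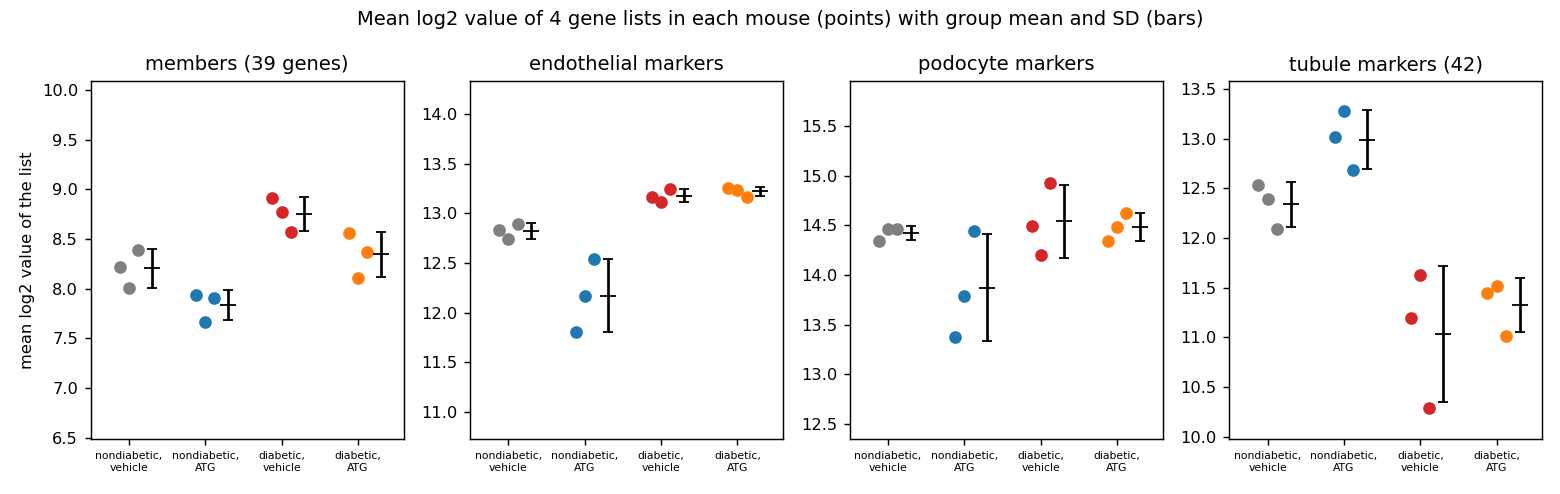
Mean log2 value of the members and of endothelial, podocyte and tubule marker lists (y axis, the same span in each panel) in each mouse, with group means and SD as bars (n = 3). Members are highest in vehicle-treated diabetic mice (8.75 ± 0.17), endothelial markers are lowest in ATG-treated nondiabetic mice, and tubule markers are lower in both diabetic groups than in both nondiabetic groups.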

How the data were processed

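Glomerular mRNA of 12 mice was sequenced and for each of the mice a file of log2 values over 14096 genes was deposited by the authors. The authors' log2 values are reads multiplied by 1 factor per library, as the linear scale shows, where 83.8% to 84.4% of those under 2000 reads came out whole, within 0.02 reads, once divided by that factor. Every listed gene reaches at least 100 on that scale in some library. The submitters' processing notes name mm10 and limma, and the aligner, the counter, its strand setting and the filter are not given in the sources used here. Without a strand setting, reads of overlapping genes cannot be told apart.

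Mice were grouped by their label. The 4 groups were fitted together with limma 3.58.1 in R 4.3.3 (trend in the prior variance), with Benjamini-Hochberg adjustment over all genes and a threshold of 0.05, and the code was tested on simulated data. A p measures only the spread between these libraries. Voom, as an alternative, used values divided by the step and rounded. Python 3.11.15 with matplotlib 3.10.9 made the figures.

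The members and the lists (other myeloid genes, CSF1 receptor ligands, T and NK cells, B and plasma cells, neutrophils, dendritic and mast cells, podocytes, endothelium, mesangium and smooth muscle, tubules, erythrocytes and platelets, proliferation) were chosen with earlier results of these data known, so counts are set beside those over all genes and no p is given for a list. Values in every mouse are given for the 2 lowest and the highest p for diabetes in each of 8 roles, the 3 lowest p in each other contrast, and the 3 widest and 3 narrowest ranges. From the other myeloid genes, the 5 lowest p for diabetes and the 3 lowest for ATG in diabetic mice are named, and in addition the 10 genes most like the members. Alternatives were a minimum of 10 reads, only the groups compared, the label number as a block, each mouse left out, both unnumbered nondiabetic mice left out, the tubule marker mean as covariate, a median-ratio scaling, a pseudocount of 10, no trend, voom and a threshold of 0.10. Gene starts are given counted from 1. Results on a few listed genes are not reported here.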

Additional observations from a re-analysis of the deposited data

How the results depend on the processing

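The number of members called for diabetes in vehicle-treated mice (15) was from 4 to 18 with each mouse left out. It was 8 with the replicate block, 3 with the tubule covariate and 27 at an adjusted p under 0.10. For ATG in nondiabetic mice (3) it was from 0 to 10 with each mouse left out, 1 with the replicate block, 10 at the looser threshold, and 0 with only the groups compared, without both unnumbered nondiabetic mice, with the tubule covariate and with the median-ratio scaling. For diabetes in ATG-treated mice (21) it was 2 with the tubule covariate and from 14 to 23 with a mouse left out. For the difference between the ATG effects (0) it was from 0 to 2 with a mouse left out and 1 at the looser threshold. For ATG in diabetic mice it was 0 throughout. The cause of these shifts was not tested. Over these alternatives, the median log2 fold change for diabetes in vehicle-treated mice was from 0.47 to 0.69, and for ATG in diabetic mice from −0.57 to −0.30.

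With the tubule covariate, the log2 fold change for diabetes in vehicle-treated mice turned in 3 members, to −0.019 in Cd84, 0.092 in Fcgr2b and 0.54 in Ptpn6, and in ATG-treated mice in 4, to −0.073 in Cd84, −0.19 in Lcp2, −0.042 in Ncf4 and 0.36 in Ptpn6. In vehicle-treated mice, Ptpn6 also turned to 0.066 with the replicate block and 0.13 without vehicle-treated diabetic mouse 3, and ranged from −0.38 to 0.13 with a mouse left out.

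Whether the numbers in the labels pair the mice is not settled by these values. Diabetic mice of the 2 treatments that shared a number had a Pearson's r of deviations across genes of 0.315, 0.0537 and 0.339. Those of different number had −0.0995, −0.226, 0.198, −0.256, −0.334 and 0.00499. Of the 15 calls for diabetes, 7 were among the 8 with the block. Standard errors of the members' log2 fold changes with ATG in diabetic mice ran from 0.089 to 0.35, which limits what 3 mice a group can show.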

Other observations

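Csf1 and Il34 encode the ligands of Csf1r. Csf1 was at 10.81, 10.92 and 11.24 in vehicle-treated nondiabetic mice, 9.56, 10.26 and 10.42 in ATG-treated nondiabetic mice, 11.93, 11.68 and 11.83 in vehicle-treated diabetic mice and 11.32, 11.48 and 11.45 in ATG-treated diabetic mice. The vehicle-treated diabetic mice were the 3 highest and the ATG-treated nondiabetic mice the 3 lowest, with a log2 fold change for diabetes in vehicle-treated mice of 0.83 ± 0.19 (SE, limma adjusted p = 0.0164) and for ATG in diabetic mice of −0.39 ± 0.19 (SE, limma adjusted p = 1.000). With ATG in nondiabetic mice it was lower (log2 fold change −0.90 ± 0.19, SE, limma adjusted p = 0.0264), and with diabetes under ATG higher, by 1.34 ± 0.19 (SE, limma adjusted p = 0.000552). Il34 had a log2 fold change for diabetes in vehicle-treated mice of 0.10 ± 0.16 (SE, limma adjusted p = 0.701), and the vehicle-treated groups overlapped. Under ATG, Il34 was higher with diabetes, by 0.52 ± 0.16 (SE, limma adjusted p = 0.020), and with ATG in nondiabetic mice its log2 fold change was −0.41 ± 0.16 (SE, limma adjusted p = 0.120).

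Outside the members, the 10 genes whose deviations from the group means were most like those of the members' mean over the 12 mice were Plbd1, Arhgap30, Themis2, Cd300a, Itgb2, Lyz1, Cybb, Rab29, Fyb and H2-Aa, with a Pearson's r from 0.90 to 0.94. An r above 0.8 was found in 13 of the 59 other myeloid genes and in 60 of the 14057 genes that are no member. The mice of a group share no label that would pair them, and these r are descriptions. Plbd1, a lysosomal phospholipase-like protein, was at 8.10, 7.70 and 8.38 in vehicle-treated nondiabetic mice, 8.03, 7.64 and 7.80 in ATG-treated nondiabetic mice, 8.94, 8.91 and 8.69 in vehicle-treated diabetic mice and 8.40, 7.75 and 8.22 in ATG-treated diabetic mice, and its vehicle-treated diabetic mice were the 3 highest of all.

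Nos3, the gene disrupted in these mice, had 846 to 2703 reads in every mouse. Where along the gene these reads lie cannot be read from gene totals.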
